A study of Mus musculus with 6 samples.

Results

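The genes of platelet-derived growth factor (PDGF) signalling were followed in 6 Affymetrix arrays of sorted mouse embryonic fibroblasts. The family has 6 genes, and all 6 were measured among 22180 genes on the arrays: the receptor genes Pdgfra and Pdgfrb and the ligand genes Pdgfa, Pdgfb, Pdgfc and Pdgfd. They were found by gene symbol among probe sets that list 1 gene, and each had 1 such probe set. The cells came from the dorsal body wall of 129SV embryos at E14.5 that carried 1 Ebf2(GFP) reporter allele (Ebf2(GFP)/+), so both groups carry the reporter. Cells were sorted for the PDGFRα protein and then by reporter fluorescence, giving 3 arrays of Ebf2(GFP)+:Pdgfra+ cells (GFP-positive) and 3 arrays of Ebf2(GFP)-:Pdgfra+ cells (GFP-negative). The labels name no treatment and do not say whether replicates were separate litters or pooled embryos, so each p-value speaks only of the variation among these arrays, part of which may be technical.

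PDGFs are secreted dimers that act on mesenchymal cells through a pair of receptor tyrosine kinases. PDGFRα is a receptor of fibroblast and adipocyte precursors and responds mainly to PDGF-A and PDGF-C, whereas PDGFRβ, known best from pericytes and smooth muscle, responds mainly to PDGF-B and PDGF-D. PDGF-C and PDGF-D are secreted in a latent form and become active once a protease removes an inhibitory domain.

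Values are log2 expression per probe set, the arrays' medians lay between 6.66 and 6.71 and precision is limited by there being 3 arrays a group. Because the tissue was measured in bulk, a lower value can come from fewer cells of a type or from less RNA per cell, and these cannot be told apart. Ebf2 followed the sort, with a mean of 12.00 ± 0.06 (SD, n = 3) in GFP-positive and 8.65 ± 0.53 (SD, n = 3) in GFP-negative cells. The log2 difference was 3.35 in the probe set used, and 1.69 with the gene's 2 probe sets averaged. The other probe set of Ebf2 thus followed the sort far less. All 13 measured markers of fibroblasts and mesenchyme, such as the collagen genes Col1a1 and Col3a1, had mean levels above 6.78, the mark below which a gene was taken as dim here (the 40th percentile of gene means). Macrophage and leukocyte markers were present as well: their mean level was 9.25 to 10.15 in the GFP-negative and 7.08 to 8.03 in the GFP-positive arrays. Of these markers 16 of 16 were lower in GFP-positive cells at a limma adjusted p under 0.05, against 3.84% of all genes. Fewer passed without GFP-positive replicate 2 (6), GFP-negative replicate 1 (7) or GFP-positive replicate 1 (10). The macrophage list and the others below were chosen with earlier results of these data known, so their counts are not independent support.

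Of the 6 PDGF genes, 2 ligand genes, Pdgfc and Pdgfa, were lower in GFP-positive cells, and none was higher, in a limma fit across all genes with Benjamini-Hochberg adjustment. In the same fit 6.49% of all genes passed, 3.84% as lower and 2.65% as higher. The median log2 difference of the 6 genes, GFP-positive minus GFP-negative, was −0.26, and that of all genes was 0.02. The 3 arrays of one group did not overlap those of the other for 4 of the 6 genes, Pdgfra, Pdgfrb, Pdgfa and Pdgfc, against 22.0% of all genes. With 3 arrays against 3, an exact two-sided permutation test of 1 gene cannot give a p below 0.1, and these 4 genes reached that value.

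The promoter windows of the ligand genes that fell are shown because these genes were lower in the same arrays. Each runs from 250 bases before a transcription start annotated by RefSeq to 50 bases after it, 5′ to 3′ along the gene's strand, in build GRCm38.p6. Pdgfc has 1 window, chr3:81036166-81036465 on the plus strand, and Pdgfa has 2 windows, chr5:138994895-138995194 and chr5:138994232-138994531, both on the minus strand. Capitals mark every match, on either strand, of CCCNNGGG, the core of the motif known for the Ebf factors, and of GGGCGG, the GC box to which Sp factors bind.
Pdgfc: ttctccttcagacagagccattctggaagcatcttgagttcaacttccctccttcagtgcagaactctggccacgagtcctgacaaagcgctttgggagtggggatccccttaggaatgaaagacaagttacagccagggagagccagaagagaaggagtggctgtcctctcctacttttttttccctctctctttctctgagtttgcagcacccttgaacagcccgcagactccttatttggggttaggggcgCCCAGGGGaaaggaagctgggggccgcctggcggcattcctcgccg
Pdgfa, first window: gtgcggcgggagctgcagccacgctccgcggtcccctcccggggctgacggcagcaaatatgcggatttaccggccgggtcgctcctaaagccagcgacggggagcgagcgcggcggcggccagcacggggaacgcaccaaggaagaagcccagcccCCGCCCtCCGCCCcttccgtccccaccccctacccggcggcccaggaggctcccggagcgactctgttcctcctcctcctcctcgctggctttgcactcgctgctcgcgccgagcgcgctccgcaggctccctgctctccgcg
Pdgfa, second window: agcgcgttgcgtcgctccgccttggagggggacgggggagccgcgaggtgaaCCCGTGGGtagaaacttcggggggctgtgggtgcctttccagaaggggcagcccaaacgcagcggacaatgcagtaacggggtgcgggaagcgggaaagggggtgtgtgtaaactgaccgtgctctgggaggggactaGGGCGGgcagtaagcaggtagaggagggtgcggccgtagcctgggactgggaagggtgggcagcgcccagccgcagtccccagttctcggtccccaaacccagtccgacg

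The core CCCNNGGG was found once in the Pdgfc window, at base 255, and once in the second Pdgfa window, at base 53, and 13.7% of the 32851 windows of all genes hold it. The longer Ebf motif TCCCNNGGGA, which contains that core, was in none of these windows and is in 0.904% of all windows. The GC box was found at 2 places in the first Pdgfa window and at 1 in the second, and is in 35.7% of all windows. Neither TATAAA, the TATA box, nor TGANTCA, the motif of AP-1 factors, was found in these 3 windows, and they are in 13.6% and 7.81% of all windows. GC content was 55.0% for Pdgfc and 73.3% and 67.0% for the first and second Pdgfa windows, against a median of 52.7% over all windows. These matches describe letters only and are not evidence of binding.

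Pdgfra, the receptor gene on whose protein both groups were sorted, was at 13.24, 13.10 and 13.07 in GFP-positive replicates 1, 2 and 3 and at 12.97, 12.98 and 12.90 in GFP-negative replicates 1, 2 and 3. Every GFP-positive array lay above every GFP-negative array, by a gap of 0.09. The difference was 0.19 ± 0.06 (SE), or 1.14-fold, and did not pass (limma adjusted p = 0.178). Its unadjusted 95% interval ran from 1.03-fold to 1.27-fold.

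Pdgfrb, the receptor gene used as a pericyte marker, was at 11.96, 12.10 and 11.87 in GFP-positive and at 12.33, 12.25 and 12.10 in GFP-negative replicates 1, 2 and 3. The groups were separated by 0.0058, less than the SD of 0.12 within each group. Its log2 difference of −0.26 ± 0.09 (SE) did not pass (limma adjusted p = 0.177) and had a 95% interval of −0.46 to −0.05. The receptor genes thus had differences of opposite sign, neither of which passed, and each kept its sign in every replicate pair.

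**Figure D1:**
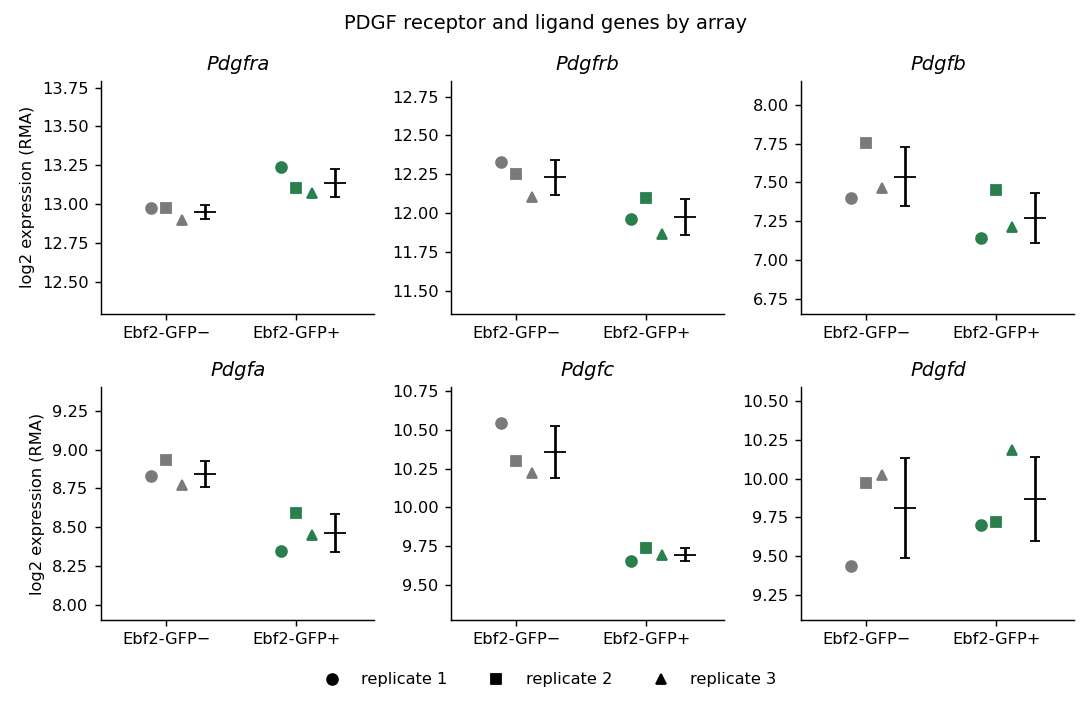
Log2 expression of the 6 PDGF genes in each array, with GFP-negative arrays in grey and GFP-positive arrays in green, one symbol per replicate number, and bars for mean and SD (n = 3). Every panel spans the same height, and Pdgfc shows the widest gap between the groups, 0.49.

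Pdgfc encodes a ligand of PDGFRα and fell the most of the 6 genes. It was at 9.65, 9.74 and 9.69 in GFP-positive and at 10.55, 10.30 and 10.22 in GFP-negative replicates 1, 2 and 3. All GFP-positive arrays lay close together and below all GFP-negative arrays. The mean was 9.69 ± 0.04 (SD, n = 3) against 10.36 ± 0.17 (SD, n = 3), a 1.58-fold lower level (log2 difference −0.66 ± 0.09 SE, limma adjusted p = 0.00877). Leaving out any 1 array kept it under the threshold, narrowly without GFP-positive replicate 1 (adjusted p = 0.04995).

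Pdgfa encodes the ligand PDGF-A, which in embryos is made by epithelia and muscle and acts on neighbouring mesenchyme. It was at 8.34, 8.59 and 8.45 in GFP-positive and at 8.83, 8.93 and 8.77 in GFP-negative replicates 1, 2 and 3, again without overlap. The 1.30-fold lower level (log2 difference −0.38 ± 0.08 SE) passed by a small margin (limma adjusted p = 0.0410). The call ended when any 1 of the 6 arrays was left out (adjusted p from 0.0517 without GFP-positive replicate 2 to 0.136 without GFP-positive replicate 3), after quantile normalization (0.0715) and with array weights (0.0546).

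Pdgfb, the ligand by which endothelium recruits pericytes, had the level nearest to the dim mark, at 7.15, 7.45 and 7.22 in GFP-positive and 7.40, 7.75 and 7.46 in GFP-negative replicates 1, 2 and 3. The groups overlapped, and replicate 2 was the highest array in both. The difference of −0.27 ± 0.12 (SE) did not pass (limma adjusted p = 0.318). The replicates of the same number deviated together over all genes, and with the replicate number as a block, where 10.0% of all genes passed, Pdgfb passed as lower (SE 0.05, adjusted p = 0.0329). The differences in replicates 1, 2 and 3 were −0.25, −0.30 and −0.25. That pairing was read from the data and not from the labels.

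Pdgfd, whose product is a ligand of PDGFRβ, was at 9.70, 9.72 and 10.18 in GFP-positive and at 9.44, 9.98 and 10.02 in GFP-negative replicates 1, 2 and 3. The groups overlapped, and the GFP-negative arrays differed among themselves by up to 0.59, more than the group means did. The difference was 0.06 ± 0.20 (SE, limma adjusted p = 0.922), with a 95% interval of −0.41 to 0.52, so a change of up to 1.44-fold upward lies within it. The estimate turned negative without GFP-negative replicate 1 (−0.13) or GFP-positive replicate 3 (−0.10).

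**Figure D2:**
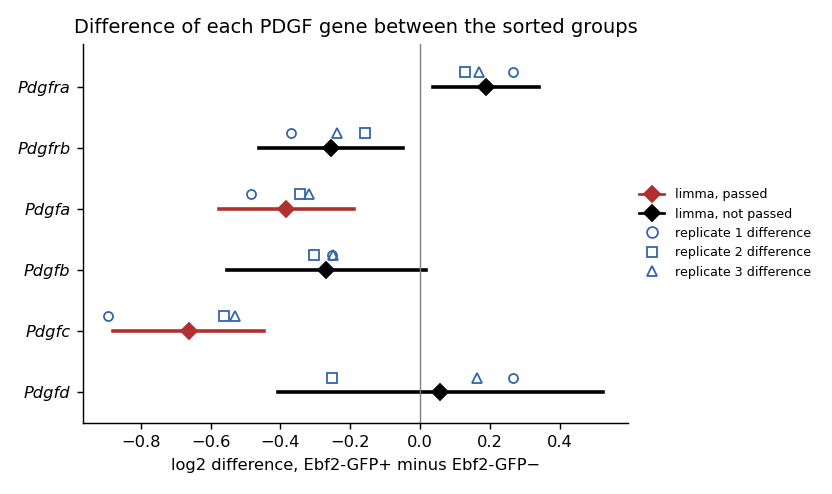
Log2 difference of each PDGF gene, GFP-positive minus GFP-negative, with limma's estimate (diamond), its unadjusted 95% interval (line) and the difference within each replicate number (open symbols). Pdgfa and Pdgfc, in red, passed the adjusted threshold, and Pdgfd is the gene whose replicate differences lie on both sides of 0.

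Cells known to make PDGF ligands or PDGFRβ were compared through their marker genes, and the part of these cells in the results was not tested. Endothelial markers had a mean level of 8.19, 8.45 and 8.32 in GFP-positive and 8.29, 8.88 and 8.51 in GFP-negative replicates 1, 2 and 3. Within both groups the arrays stood in the same order for these markers as for Pdgfb, with replicate 2 highest and replicate 1 lowest. That order is not particular to endothelial markers. The mean levels of the platelet, skeletal muscle and early response lists described below stood in it too. Of 14 endothelial markers, 2 were lower in GFP-positive cells and 1 higher, against 3.84% and 2.65% of all genes. Without GFP-positive replicate 2, 1 of the 14 passed. The lower ones were Erg, an endothelial transcription factor gene (−1.29 ± 0.11 SE, limma adjusted p = 0.00169), and the VE-cadherin gene Cdh5 (−0.998 ± 0.16 SE, adjusted p = 0.0160; 0.0660 without GFP-negative replicate 2 and 0.0549 without GFP-positive replicate 2). Emcn, the gene of the sialomucin endomucin, was the higher one (0.94 ± 0.16 SE, adjusted p = 0.0214), and its call ended without GFP-negative replicate 3 or any 1 GFP-positive array (up to 0.0943). Pecam1, a pan-endothelial marker, had a difference of −0.38 ± 0.27 (SE, adjusted p = 0.554). Over the 14 markers the median log2 difference was −0.25, with 12 below 0 and 2 above. Genes of a list may vary together, so their signs are not separate observations.

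Pdgfc and Pdgfa were lower in the same group as macrophage markers, cells that can make PDGFs. Over GFP-negative replicates 1, 2 and 3 the macrophage list had mean levels of 9.73, 9.25 and 10.15. Pdgfc was highest in replicate 1 and lowest in replicate 3, and Pdgfa was highest in replicate 2 and lowest in replicate 3. These orders differ from that of the list, but an order of 3 arrays cannot decide whether they are linked. Whether macrophages account for the lower values of either gene was not tested. In the GFP-positive replicates the list was at 7.08, 7.76 and 8.03, and both genes were lowest in replicate 1 and highest in replicate 2. The epithelial list, another known source of Pdgfa, had 1 of 10 measured markers lower and none higher, against 6.49% of all genes passing. Its mean level was 6.80 to 6.92 in GFP-positive and 6.89 to 7.04 in GFP-negative arrays. The lower gene was the E-cadherin gene Cdh1 (−1.09 ± 0.09 SE, limma adjusted p = 0.00161, or −0.54 with the gene's probe sets averaged). What the main fit left out of Cdh1 thus differed less. Epcam, which lay below the dim mark, and Krt18 had differences of 0.49 and 0.34 and did not pass (adjusted p = 0.0976 and 0.257). Krt18 passed as higher with the replicate block (0.0413), and Epcam without GFP-positive replicate 3 (0.0134). In each of these fits 2 of the 10 passed, against 10.0% and 3.44% of all genes.

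Mural and smooth muscle markers, which often accompany Pdgfrb, had mean levels of 9.09 to 9.18 in GFP-positive and 9.20 to 9.33 in GFP-negative arrays. Of 13 such markers, 4 were lower and 1 higher in GFP-positive cells, against 3.84% and 2.65% of all genes. Without any 1 array other than GFP-negative replicate 1, 3 of the 13 passed. The contractile genes Cnn1 (−0.91 ± 0.07 SE, limma adjusted p = 0.00106) and Acta2 (−0.63 ± 0.07 SE, adjusted p = 0.00450) and the pericyte gene Rgs5 (−0.65 ± 0.07 SE, adjusted p = 0.00449) were lower. Notch3, the receptor gene of mural cells, was higher (0.50 ± 0.10 SE, adjusted p = 0.0293), a call that ended without any 1 array other than GFP-negative replicate 1 (up to 0.105). Tagln, the other lower gene, passed by a small margin (−0.48 ± 0.10 SE, adjusted p = 0.0441). The pericyte genes Kcnj8 and Cspg4, singled out after their values were seen, differed by −0.15 and 0.09 and did not pass (adjusted p = 0.749 and 0.477). Abcc9 and Des of the same list, singled out likewise, differed by 0.35 and 0.32 and did not pass (adjusted p = 0.317 and 0.162). Over the list, 5 genes had a difference above 0 and 8 below. Pdgfrb did not follow the order of the mean level of these markers within either group, and a link between them was not tested. Among platelet and megakaryocyte markers, 1 of 8 measured genes passed, against 6.49% of all genes: Pf4, which macrophages also express, was lower (−2.89 ± 0.41 SE, adjusted p = 0.0106). The Schwann and neuron list had 3 of 8 measured genes lower, against 3.84% of all genes. Among them was the Schwann precursor gene Fabp7 (−1.64 ± 0.22 SE, adjusted p = 0.00802), and 1 of the 8 passed without GFP-positive replicate 1. The skeletal muscle list, a known source of Pdgfa, had 1 of 12 genes higher and none lower, near the 6.49% of all genes that passed. The higher gene was the troponin gene Tnnt1 (adjusted p = 0.00917, SE 0.06 around a difference of 0.40). With the replicate block and after quantile normalization 2 of the 12 passed, against 10.0% and 6.92% of all genes. The median log2 difference of the list was 0.17, with 11 genes above 0 and 1 below. Genes of a list may vary together, so their signs are not separate observations.

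**Figure D3:**
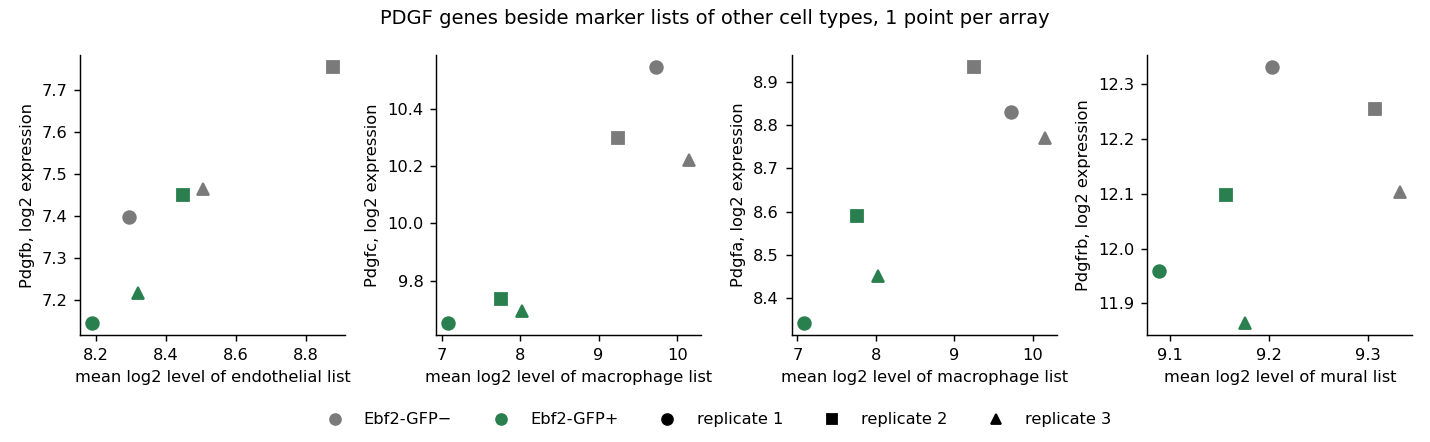
Log2 expression of Pdgfb, Pdgfc, Pdgfa and Pdgfrb (y) against the mean log2 level of a marker list (x), 1 point per array, with GFP-negative arrays in grey and GFP-positive arrays in green. Within both groups the arrays stand in the same order for Pdgfb as for the endothelial list, which is not so for Pdgfrb and the mural list. Other lists that are not drawn, such as that of skeletal muscle, share the order of Pdgfb.

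Of 15 measured genes whose products process or bind PDGF ligands, 1 was higher and none lower, near the 6.49% of all genes that passed, and the median log2 difference was 0.01. The higher gene was Vcan, which encodes the matrix proteoglycan versican (0.35 ± 0.05 SE, limma adjusted p = 0.00867). Among the proteases, Plat, whose product tPA cleaves PDGF-C, had a difference of 0.32 ± 0.13 (SE, adjusted p = 0.260) and was at a mean of 11.78 ± 0.08 (SD, n = 3) in GFP-positive cells. Plau, whose product uPA cleaves PDGF-D, had a difference of −0.97 ± 0.30 (SE, adjusted p = 0.142), and the proprotein convertase genes Pcsk5 and Pcsk6 had differences of 0.26 ± 0.07 and −0.42 ± 0.15 (SE; adjusted p = 0.0974 and 0.186). With the replicate block Plau, Pcsk5 and Pcsk6 passed (adjusted p = 0.0283, 0.0388 and 0.0106), and 4 of the 15 genes did, against 10.0% of all genes. After median centring 2 did, Vcan and Pcsk5 (adjusted p = 0.0395 for the latter). Plau separated the groups, and its SD was 0.62 in GFP-negative cells.

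Of 30 measured adaptor and signal genes downstream of the receptors, 2 were lower and none higher, near the 6.49% of all genes that passed, with a median log2 difference of 0.06. The lower genes were Vav3, a guanine nucleotide exchange factor (−1.05 ± 0.08 SE, limma adjusted p = 0.00123), and Pik3cb, a catalytic subunit of PI3 kinase (−0.75 ± 0.09 SE, adjusted p = 0.00466). Prkca, the gene of protein kinase C alpha, and the Ras exchange factor gene Sos2 had differences of 0.26 and 0.18 and did not pass (adjusted p = 0.0777 and 0.163), though Prkca did with the replicate block (0.0333) and after quantile normalization (0.0454). Among direct docking partners, Grb2, Shc1, Pik3r1, Plcg1 and Ptpn11, singled out from the fixed list after their values were seen, had differences between −0.09 and 0.06. Other genes of the list differed more. Pik3r2 and Fyn, singled out in the same way, had differences of 0.29 and 0.21 (limma adjusted p = 0.244 and 0.267). Over the list, 24 genes had a difference above 0 and 6 below. With the replicate block, 4 of these 30 genes passed, against 10.0% of all genes.

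Genes that limit receptor signalling passed in both directions, with 2 of 18 measured genes higher and 2 lower, against 6.49% of all genes passing in either direction, and a median log2 difference of −0.04. The Sprouty genes, feedback inhibitors of receptor tyrosine kinases, were the higher ones. Spry4 was 2.43-fold higher (1.28 ± 0.16 SE, limma adjusted p = 0.00708) and Spry2 1.37-fold higher (0.46 ± 0.09 SE, adjusted p = 0.0389). The caveola gene Cav1 was 1.84-fold lower (−0.88 ± 0.14 SE, adjusted p = 0.0141) and the ubiquitin ligase gene Cblb 1.34-fold lower (−0.43 ± 0.09 SE, adjusted p = 0.0410). The call of Spry2 ended without any 1 array other than GFP-negative replicate 2 (up to 0.149). That of Cblb ended without any 1 array other than GFP-negative replicate 3 (up to 0.143) and after median centring (0.0653). Without GFP-negative replicate 1 or any 1 GFP-positive array, 2 of the 18 genes passed, and with the replicate block 7 did, against 10.0% of all genes.

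Among genes of the early transcriptional response to PDGF, 2 of 23 measured genes were lower and none higher, near the 6.49% of all genes that passed. The median log2 difference was −0.18, against 0.02 over all genes, and 19 of the 23 genes had a difference below 0 and 4 above. The list's mean level was highest in replicate 2 of both groups (11.18 in GFP-positive and 11.36 in GFP-negative cells). Its genes may thus vary together, and their signs are not separate observations. Both lower genes were chemokine genes that macrophages also express. Ccl2 was 3.98-fold lower (−1.99 ± 0.21 SE, limma adjusted p = 0.00366) and Ccl7 3.66-fold lower (−1.87 ± 0.28 SE, adjusted p = 0.0122, or 0.05001 without GFP-negative replicate 1 and 0.0517 without GFP-positive replicate 2). None of the others passed. Plaur, the uPA receptor gene, and Has2, a hyaluronan synthase gene, had differences of −0.41 and 0.34 (adjusted p = 0.0869 and 0.143). With the replicate block, 5 of the 23 genes passed, Plaur among them (0.0104), against 10.0% of all genes, and without GFP-negative replicate 1 only 1 did.

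**Figure D4:**
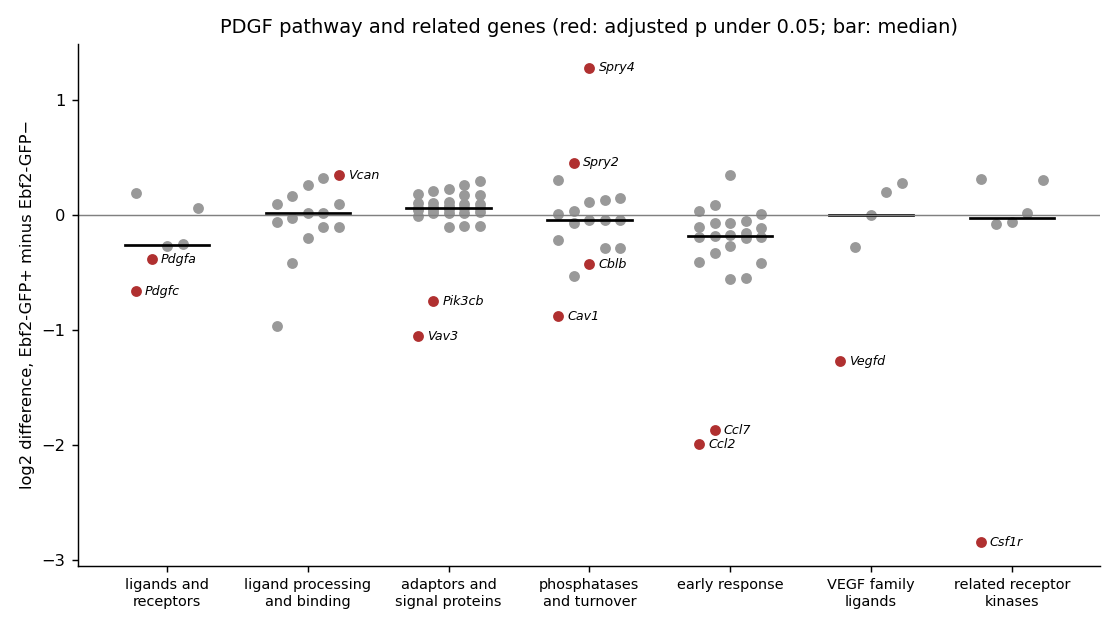
Log2 difference, GFP-positive minus GFP-negative, of each measured gene of the PDGF family, its pathway and the related VEGF ligands and receptor kinases, with genes that passed in red and a bar for the list median. The lists centre near 0 except the PDGF family (−0.26) and the early response (−0.18), and single genes such as Spry4 and Csf1r lie far from their list's median.

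Among the relatives of the PDGF genes, 1 ligand gene of 5 and 1 receptor gene of 6 passed, both as lower, against 6.49% of all genes passing. Among 5 measured VEGF family ligand genes, which share the growth factor fold of the PDGFs, Vegfd was 2.41-fold lower (−1.27 ± 0.16 SE, limma adjusted p = 0.00676). Vegfc and Vegfa had differences of −0.28 and 0.20 and did not pass (adjusted p = 0.0633 and 0.157), and Vegfc passed with the replicate block (0.0292), after quantile normalization (0.0393), without dim genes (0.0451) and with array weights (0.0480). Among 6 measured receptor kinase genes of the classes III and V, Csf1r, the growth factor receptor of macrophages and a member of that marker list, was 7.18-fold lower (−2.84 ± 0.37 SE, adjusted p = 0.00766). Kit and Kdr differed by 0.02 and 0.30 (adjusted p = 0.951 and 0.515), and Kdr passed without GFP-negative replicate 2 (0.0388). Flt4, a receptor gene of lymphatic endothelium, had a difference of 0.31 (adjusted p = 0.403) and passed with the replicate block (0.0454).

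The genes whose profile over the 6 arrays was most like that of a PDGF gene were found by Pearson's r among genes above the dim mark with an SD of at least 0.2. Since the groups separate the arrays, a gene that is lower in GFP-positive cells tends to correlate with Pdgfc and Pdgfa. At r above 0.9, 483 and 314 of 2916 genes did so. Genes higher in GFP-positive cells tend to correlate negatively and are not in these counts. The closest to Pdgfc were Entpd7, Sorbs2 and Nkain2 (r = 0.998, 0.996 and 0.996), and the closest to Pdgfa were Ncan, Rasgrp3 and Psd (0.998, 0.993 and 0.993). Pdgfra was followed most closely by Cdh18, Fgf11 and Aplp1 (0.996, 0.985 and 0.981) and Pdgfrb by Tpd52l1, Adcy5 and Net1 (0.984, 0.981 and 0.978). The closest to Pdgfb were Tiparp, Tac1 and Robo4 (0.991, 0.985 and 0.984), of which Robo4 is an endothelial receptor gene of the marker list. For Pdgfd they were Gabra2, Hspb8 and Dpep1 (0.970, 0.965 and 0.956), and 35 genes exceeded 0.9.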

How the data were processed

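Affymetrix arrays were run on RNA of 6 samples of sorted cells. The authors deposited log2 expression values for probe sets. RMA and limma are the tools in the submitters' processing notes, with versions and filters not given in the sources used here. The log2 scale was read from the values (3.41 to 14.32). RMA scales arrays to each other, so a shift common to most genes may be reduced. The deposited arrays did not share exactly 1 distribution, and quantile normalization and median centring still moved values.

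Genes were named from the 23521 of 41345 probe sets that list 1 gene, with symbols checked by gene identifier in a RefSeq table of GRCm38.p6 (23328 matched). Each gene was represented by its probe set of highest 6-array mean, which left 22180 genes. The 1814 probe sets that list several genes were left out. The files carry no detection calls.

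Differences are GFP-positive minus GFP-negative, fitted with limma 3.58.1 (lmFit, eBayes; R 4.3.3). Genes passed where the p adjusted by Benjamini-Hochberg over all genes was under 0.05. The method was tested on simulated data, in 8 runs with 200 changed genes each among 22180. It recovered 4.75% of changes of 0.25 log2, 49.8% of those of 0.5 and 85% of those of 1, and 4.42% of its calls were false. A small difference that did not pass may therefore still be a real one. The adjusted threshold depends on how many genes change, and the real fit called 1439. The simulated rates need not hold for it. Errors beside group means are SD and those beside differences are limma's SE. Promoter windows came from RefSeq (GRCm38.p6), and plots were drawn with matplotlib 3.10.9.

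The members and the 15 gene lists (197 of 209 entries measured) were chosen with earlier results of these data known. The named genes are the 6 members, Ebf2, up to 4 genes per list by smallest p, and the 3 genes closest to each member by r, and others are said to have been singled out. Kit, Kcnj8, Cspg4, Tagln, Abcc9, Pecam1, Plat and Pdgfrl were also singled out after their values were seen.

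The labels number replicates alike in both groups. Deviations from the group means correlated at 0.314 to 0.519 for same-numbered arrays and at −0.384 to −0.0243 for others, so the numbers were taken to pair the arrays on the evidence of the data. The fit was repeated with the replicate block, after quantile normalization or median centring, without dim genes, with a gene's probe sets averaged or tested apart, with eBayes robust or with a trend, with weights for arrays, and without each array.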

Additional observations from a re-analysis of the deposited data

How the results depend on the processing

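Pdgfc passed as lower under all 15 alternatives, with log2 differences from −0.73 to −0.57. Pdgfra and Pdgfrb kept their sign and did not pass under any of them (adjusted p from 0.0801 to 0.402 and from 0.0697 to 0.399). Pdgfa kept its sign (−0.45 to −0.32 with 1 array left out) and lost its call in each of those 6 fits, after quantile normalization (−0.36) and with array weights (−0.35), so that 1 PDGF gene passed in these 8 fits. With the replicate block Pdgfb passed (−0.27), and 3 PDGF genes did. The block changed no call of the other 5. Pdgfb ranged from −0.36 to −0.16 and Pdgfd from −0.13 to 0.16 with 1 array left out, and Pdgfd turned negative without GFP-negative replicate 1 or GFP-positive replicate 3. Of 184 other genes in the lists, 44 passed, 6 higher and 38 lower, against 6.49% of all genes. The macrophage list held 16 of these lower genes, and all lists were chosen with earlier results of these data known. With the block 61 of the 184 passed, 14 higher and 47 lower, and with 1 array left out 26 (without GFP-positive replicate 2) to 39. Macrophage genes that passed numbered 6 to 15 of 16 with 1 array left out (6 without GFP-positive replicate 2 and 7 without GFP-negative replicate 1). Ppbp, a platelet gene, differed by −0.20 and by 0.0084 without GFP-positive replicate 1. Over all genes 1439 passed, 2228 with the block and 629 to 1067 with 1 array left out. After median centring 868 were higher and 749 lower, in place of 588 and 851. The causes of these changes were not tested, although fits without an array have fewer samples. The number of arrays and the lack of detection calls limit all of these values.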

Other observations

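Pdgfrl, a gene named for its likeness to the PDGF receptors and outside the family as defined here, was at 9.71, 9.996 and 10.18 in GFP-positive and at 10.07, 10.55 and 10.67 in GFP-negative replicates 1, 2 and 3. Its difference of −0.47 ± 0.18 (SE) did not pass (limma adjusted p = 0.246), and it was lower in the GFP-positive array of every replicate number.

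Several genes that mark fibroblasts differed between groups that were both sorted for PDGFRα. Of 13 such genes, 4 were lower in GFP-positive cells and none higher, against 3.84% and 2.65% of all genes. Thy1, a surface glycoprotein of fibroblasts, fell 3.86-fold (−1.95 ± 0.08 SE, limma adjusted p = 0.000276), and the mesenchymal transcription factor gene Twist2 fell 3.18-fold (adjusted p = 0.00240) and its relative Twist1 by 1.75-fold (adjusted p = 0.000969). The proteoglycan gene Lum fell 1.27-fold (adjusted p = 0.0295), a call that ended without any 1 array other than GFP-negative replicate 1 (up to 0.103). The list's collagen genes were singled out after their values were seen. Col1a1, Col1a2 and Col3a1 had differences of −0.08, −0.07 and 0.03, and Col5a1 and Col6a1 of 0.15 and 0.16. None of them passed.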
